A study of Mus musculus with 20 samples.

Results

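The 10 genes described here encode enzymes that oxidise or reduce steroids and retinoids in liver: Hsd17b6, Hsd17b2, Akr1c6, Srd5a1, Hsd3b2, Hsd3b3, Hsd11b1, Rdh11, Rdh16 and Dhrs3. They were taken by name from the 25238 genes counted in both experiments of a mouse liver study. Hsd17b6 and Rdh11 were chosen by measured values, namely their levels in the 4 groups and their opposite fold changes when Pklr was lowered and raised in these same livers. Fold changes of the 10 genes are therefore given as descriptions, without p-values. Pklr encodes a pyruvate kinase of liver and erythrocytes, which ends glycolysis by making pyruvate.

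Livers of 20 male C57BL/6J mice were sequenced, 5 in each of 4 groups, and the series concerns the role of Pklr in fatty liver disease. All mice received 1 intravenous dose of an AAV8 vector at 8 weeks of age, then a diet labelled HF/HS, and livers were taken at 25 weeks. In the knockdown experiment mice were given a hairpin RNA directed at Pklr (shPKLR) or, as the control, at firefly luciferase (shLUC). In the overexpression experiment they were given Pklr (PKLR) or, as the control, GFP. The thyroxine binding globulin promoter in the vectors works in hepatocytes, so they were not made to act in the other cells of the liver. No group was free of vector or of the diet. Library totals ran from 29933820 to 45413803 counts in 19 livers and reached 167891680 in shPKLR replicate 4. Levels are given as CPM, the count per 1000000 counts of a library, scaled by TMM (a normalization that evens out differences in composition) over all 20 libraries. Pklr was at 481 ± 120 CPM with shLUC, 54.6 ± 23.2 with shPKLR, 118 ± 34.8 with GFP and 746 ± 212 with PKLR (SD, n = 5 each). The 2 control groups themselves did not overlap in Pklr, with a log2 difference of -2.05, GFP less shLUC. Hepatocyte markers summed to between 77778 and 126047 CPM in every liver. Of 6 markers of steroid-producing cells, such as those of the adrenal gland or gonads, 2 were counted in both tables, and these summed to 7.37 to 55.6 CPM. Among these 2, Cyp17a1 is also in the list of female-biased liver genes used below, so the sum is no measure of such cells alone. All 10 markers of Kupffer cells and macrophages had positive log2 fold changes with knockdown (0 called by edgeR), with sums of 118 to 219 CPM with shLUC and 109 to 290.1 with shPKLR. With overexpression 4 of the 10 had positive and 6 negative log2 fold changes. The sums overlapped, at 90.2 to 371 CPM with GFP and 81.3 to 255 with PKLR. Of the 10 markers 1, Gpnmb, fell (-3.55, edgeR adjusted p = 0.043). In the difference between the effects of overexpression and knockdown 3 were lower, Gpnmb (-4.71) and Marco (-3.78) among them. Over all genes edgeR called 0.846% lower with overexpression and 2.75% lower in the difference. Limma-voom called 0 of the 10 markers with overexpression and 0 in the difference. The part of these cells in the results was not tested.

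Steroid hormones reach the liver from the adrenal glands and gonads, and hydroxysteroid dehydrogenases and reductases there turn active hormones into inactive ones or back again. Many of these enzymes, and several retinol dehydrogenases, belong to the short-chain dehydrogenase family and use NAD or NADP as a cofactor, and some members act on both kinds of substrate. In mouse liver many steroid-metabolising genes differ between the sexes. Retinol, or vitamin A, is oxidised first to retinal and then to retinoic acid, which acts through nuclear receptors, and retinal can be reduced back to retinol.

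Hsd17b6 and Rdh11 carried the contrasting values, so the 250 bases before a RefSeq start site of each (GRCm38.p6) are shown here 5′ to 3′ along the gene. The 2 windows hold no annotated exon base. The Hsd17b6 window is chr10:128007612-128007861 and the Rdh11 window is chr12:79190962-79191211, both on the minus strand. The Rdh11 window lies inside the span of the gene in the GENCODE annotation (chromosome 12, 79174337 to 79192293), which starts farther upstream. Capitals mark the E-box CACGTG, the CCAAT box (CCAAT, or ATTGG on the other strand) and the nuclear receptor motif AGGTCA.
Hsd17b6: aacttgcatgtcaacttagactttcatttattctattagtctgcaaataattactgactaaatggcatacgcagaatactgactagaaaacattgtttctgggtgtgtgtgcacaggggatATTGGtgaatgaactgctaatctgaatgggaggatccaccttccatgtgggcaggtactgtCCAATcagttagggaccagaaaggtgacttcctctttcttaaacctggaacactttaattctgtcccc
Rdh11: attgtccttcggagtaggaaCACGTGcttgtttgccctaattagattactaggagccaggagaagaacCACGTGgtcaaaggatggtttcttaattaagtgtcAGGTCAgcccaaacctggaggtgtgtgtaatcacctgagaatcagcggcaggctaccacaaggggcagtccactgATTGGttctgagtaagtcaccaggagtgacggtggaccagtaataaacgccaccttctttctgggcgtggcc

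The Rdh11 window holds 2 E-boxes, beginning 230 and 182 bases before the start, besides AGGTCA at 147 and ATTGG at 72. The window of the other RefSeq start of Rdh11 (chromosome 12, 79191856 to 79192105) lies wholly in annotated exons and held none of these motifs. The Hsd17b6 window holds ATTGG at 129 and CCAAT at 68. Both strands were searched in the same 250 bases of 32851 RefSeq promoters. An E-box was in 6.02% of them and at least 2 E-boxes in 0.429%, while the CCAAT box was in 33.9% and AGGTCA or TGACCT in 14.0%. Of 14 windows, which cover 9 of the 10 genes, some of them with several start sites, 1 held an E-box, 10 a CCAAT box and 0 the sterol regulatory element TCACNCCAC, which was in 1.05% of all promoters. These are matches of letters and no measure of binding.

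Hsd17b6 (ENSMUSG00000025396; GRCm38 chromosome 10, 127990936 to 128007611, minus strand) encodes a microsomal enzyme that oxidises androgen metabolites such as androstanediol. With shLUC its level in the 5 livers was 70.2, 44.3, 72.2, 34.0 and 38.1 CPM. With shPKLR it was 137, 97.1, 130.5, 218 and 187 CPM. Every shPKLR liver lay above every shLUC liver. With GFP the livers were at 124, 139.7, 166, 146 and 112 CPM, and with PKLR at 55.8, 51.3, 85.5, 53.4 and 65.3 CPM. Every PKLR liver lay below every GFP liver. The means were 51.8 ± 18.1 with shLUC, 154 ± 48.1 with shPKLR, 138 ± 20.7 with GFP and 62.3 ± 14.1 with PKLR (SD, n = 5 each). The log2 fold change was 1.57 (SE 0.26) with knockdown and -1.15 (SE 0.15) with overexpression, or 2.97-fold and 0.452-fold.

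Rdh11 (ENSMUSG00000066441; chromosome 12, minus strand) encodes an enzyme of the endoplasmic reticulum that reduces retinal to retinol. In shLUC livers it was at 62.1, 103, 47.6, 105 and 76.5 CPM, and in shPKLR livers at 48.0, 43.2, 27.3, 25.0 and 23.9 CPM. The groups overlapped only through shLUC replicate 3, which lay just under shPKLR replicate 1. In GFP livers it was at 30.7, 37.5, 33.0, 21.8 and 32.4 CPM, and in PKLR livers at 59.1, 74.3, 75.0, 67.1 and 46.9 CPM. Every PKLR liver lay above every GFP liver. Group means were 78.8 ± 25.1, 33.5 ± 11.3, 31.1 ± 5.76 and 64.5 ± 11.7 CPM for shLUC, shPKLR, GFP and PKLR (SD, n = 5 each). Rdh11 had a log2 fold change of -1.23 (SE 0.26) with knockdown and 1.05 (SE 0.16) with overexpression.

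**Figure D1:**
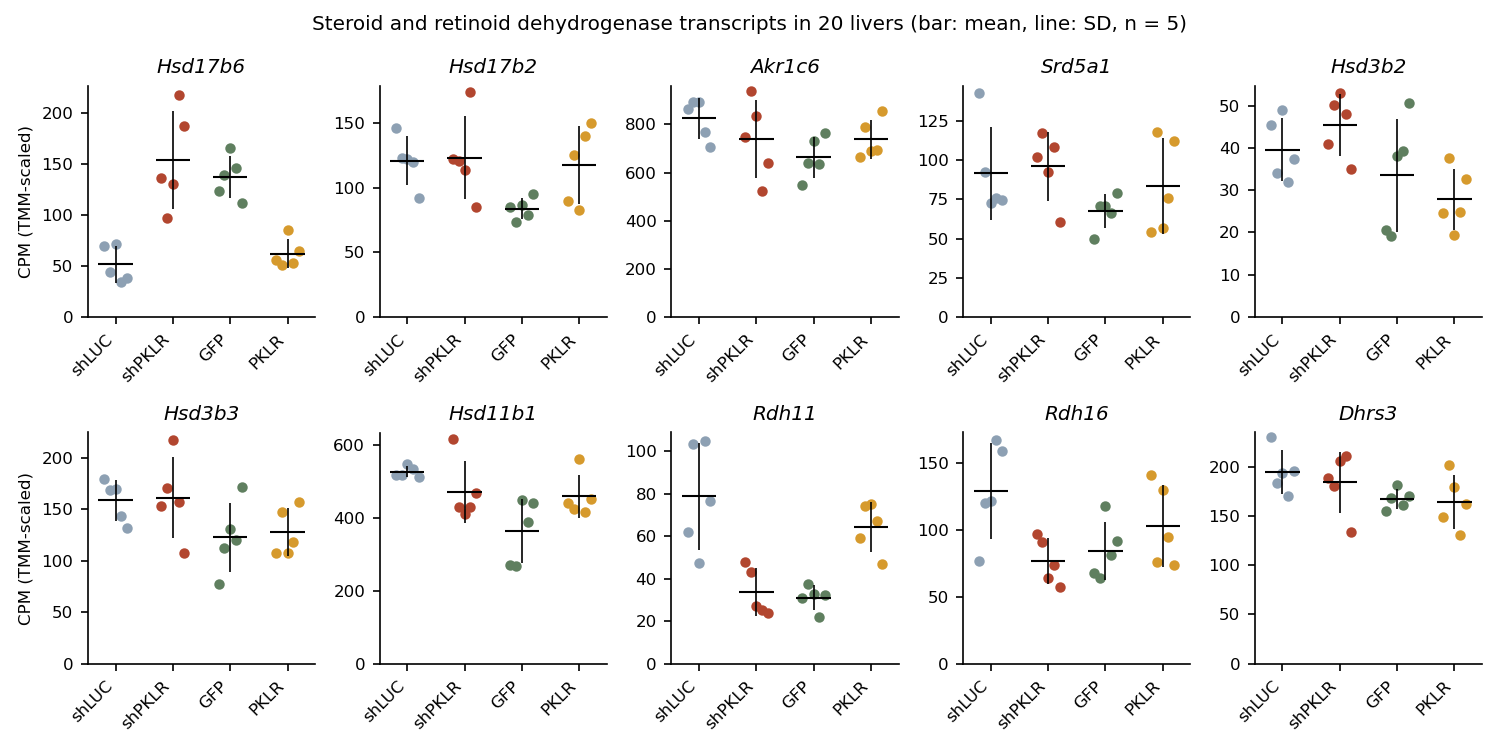
TMM-scaled CPM of each gene in each of 20 livers, with 1 panel per gene, a linear axis from 0 and groups along the horizontal axis; points are livers, horizontal bars means and vertical lines the SD (n = 5). Hsd17b6 is high with shPKLR and GFP (97.1 to 218 CPM) and low with shLUC and PKLR (34.0 to 85.5 CPM). Rdh11 is lower with shPKLR and GFP (21.8 to 48.0 CPM) than with shLUC and PKLR (46.9 to 105 CPM), and its knockdown groups overlap. The groups of the other 8 genes overlap within each experiment.

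A gene was called when its edgeR quasi-likelihood p, adjusted by Benjamini-Hochberg over all genes tested, was under 0.05. By this measure 0 of the 10 genes were called with knockdown, where 0.00641% of 15611 genes were (1 gene, Pklr). Unadjusted p-values under 0.05 were found for 3 of the 10 and for 2339 of all genes. DESeq2 called 2 of the 10 and 260 of all genes, and limma-voom 0 of the 10 and 8 of all genes. With overexpression 2 of the 10, Hsd17b6 and Rdh11, were called, against 2.03% of 15842 genes (1.19% higher, as Rdh11, and 0.846% lower, as Hsd17b6). The difference between both effects is the log2 change from GFP to PKLR less that from shLUC to shPKLR. In it Hsd17b6 and Rdh11 were called as well, against 5.5% of 16407 genes (2.75% higher and 2.75% lower). Hsd17b6 had a log2 difference of -2.74 (SE 0.32) there and Rdh11 one of 2.26 (SE 0.33). Since these contrasts chose the genes, nothing is read from the counts. All 10 genes passed the filter on low counts. Their median log2 fold change was -0.02 with knockdown, 0.22 with overexpression and 0.25 in the difference, beside medians over all genes of 0.02, 0.01 and -0.06.

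Groups without overlap were found in 3.21% of genes with knockdown (1.19% higher, 2.02% lower) and 5.04% with overexpression (3.06% higher, 1.98% lower). Among the 10 genes these were Hsd17b6 alone with knockdown, and Hsd17b6 and Rdh11 with overexpression. Opposite directions without overlap in both experiments were found in 0.421% of genes, with 0.0549% arranged like Hsd17b6 and 0.366% the other way round. Taken over the 2 experiments, all 10 shPKLR and GFP livers lay above all 10 shLUC and PKLR livers in Hsd17b6. That held for 5 genes, or 0.0305% of 16407, the others being Csrp2, Zdhhc2, Ifitm2 and 4732465J04Rik, which were named after their values were seen. Pklr itself had the opposite arrangement, from 25.4 to 145 CPM with shPKLR and GFP and from 350.4 to 924 CPM with shLUC and PKLR, as had 0.183% of genes. In Rdh11 the shLUC and PKLR livers ran from 46.9 to 105 CPM and the shPKLR and GFP livers from 21.8 to 48.0 CPM.

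**Figure D2:**
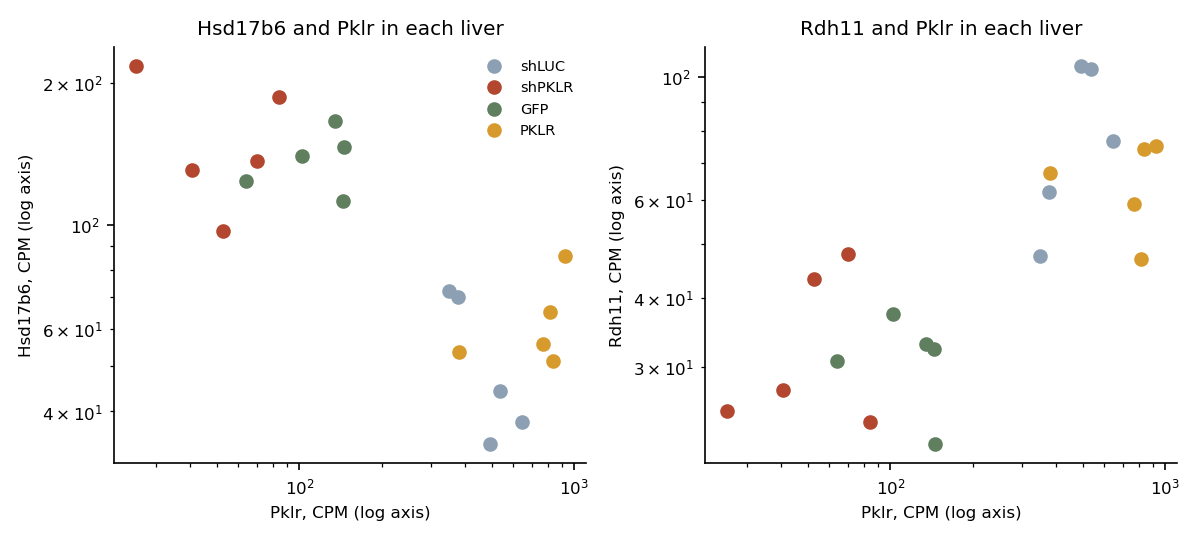
Level of Hsd17b6 (left) and Rdh11 (right) against that of Pklr in each of 20 livers, in TMM-scaled CPM on log axes, with colours for the 4 groups. Livers with Pklr at 145 CPM or below, all of them shPKLR or GFP, have Hsd17b6 at 97.1 CPM or above. Livers with Pklr at 350.4 CPM or above, all of them shLUC or PKLR, have it at 85.5 CPM or below. Rdh11 lies lower at low Pklr, with an overlap between 46.9 and 48.0 CPM. These are the differences between groups that chose the genes. After subtraction of group means the Pearson r with Pklr was -0.17 for Hsd17b6 (0.05 without shPKLR replicate 4). For Rdh11 it was 0.22 (0.10 without that liver).

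The control groups differed as well. From highest to lowest mean, Hsd17b6 was ordered shPKLR, GFP, PKLR and shLUC. The neighbours shPKLR and GFP overlapped, as did PKLR and shLUC, and only the step from GFP to PKLR had no overlap. Rdh11 was ordered shLUC, PKLR, shPKLR and GFP, and each pair of neighbours overlapped. Every GFP liver lay above every shLUC liver in Hsd17b6, with a log2 difference of 1.47, and below in Rdh11, with one of -1.30. Hsd11b1 was also lower in every GFP liver, by a log2 difference of -0.57. GFP and shLUC livers had no overlap in 8.05% of genes (3.66% higher and 4.39% lower with GFP). Control vector and experiment cannot be told apart in this comparison, and it shares its livers with the contrasts that chose the genes.

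Among the other steroid enzymes, levels in the 2 groups of each experiment overlapped and none was called. Akr1c6, an aldo-keto reductase that makes testosterone from androstenedione, was the most abundant of the 10 genes per length, at 406 RPKM (CPM per kilobase of exon) in shLUC livers. Its mean was 825 ± 84.3 CPM with shLUC, 738 ± 162 with shPKLR, 663 ± 85.7 with GFP and 738 ± 81.4 with PKLR (SD, n = 5 each). The log2 fold changes of Akr1c6 were -0.16 (SE 0.16) with knockdown and 0.16 (SE 0.12) with overexpression. Hsd17b2, which oxidises estradiol and testosterone to their 17-keto forms, was at 62.7 RPKM with shLUC. It was at 84.8, 73.2, 86.9, 78.6 and 95.2 CPM in the 5 GFP livers and at 89.9, 125, 82.7, 140.1 and 149.9 CPM in the PKLR livers. Of these, PKLR replicates 1 and 3 lay within the range of GFP. Its log2 fold change with overexpression was 0.49 (SE 0.16), the largest of the 8 genes that were not called there, and with knockdown it was 0.03 (SE 0.18).

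Srd5a1, the 5-alpha reductase that turns testosterone into dihydrotestosterone, was at 91.6 ± 29.6 CPM with shLUC, 96.1 ± 21.9 with shPKLR, 67.5 ± 10.8 with GFP and 83.5 ± 30.4 with PKLR (SD, n = 5 each). Its log2 fold changes were 0.07 (SE 0.22) and 0.31 (SE 0.23). PKLR livers fell to both sides, at 54.0, 56.6, 76.2, 112 and 118 CPM in rising order. Hsd3b2 and Hsd3b3, 3-beta-hydroxysteroid dehydrogenases, lie 16979 bases apart on chromosome 3. Hsd3b3 was at 24.8 RPKM and Hsd3b2 at 10.7 RPKM in shLUC livers. Hsd3b3 had log2 fold changes of 0.03 (SE 0.17) and 0.06 (SE 0.19), and Hsd3b2 had 0.20 (SE 0.16) and -0.26 (SE 0.28), with knockdown and overexpression.

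Hsd11b1, which regenerates active glucocorticoid from its inactive keto form, was at 519, 519, 548, 535 and 512 CPM in the shLUC livers, the tightest group of the 40. Its level was 471 ± 84.2 CPM with shPKLR, 364 ± 88.7 with GFP and 459 ± 59.7 with PKLR (SD, n = 5 each). GFP replicates 1 and 2, at 270.2 and 269 CPM, lay under every other liver. The log2 fold changes were -0.16 (SE 0.13) and 0.34 (SE 0.16), and the groups overlapped in both experiments.

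Of the other retinoid enzymes, Rdh16, a hepatic retinol dehydrogenase, was at 129 ± 36.1 CPM in shLUC, 76.4 ± 17.2 in shPKLR, 84.2 ± 21.7 in GFP and 103 ± 30.8 in PKLR livers (SD, n = 5 each). The shLUC livers stood at 76.6, 119.6, 122, 167 and 159 CPM and the shPKLR livers at 97.0, 90.8, 63.7, 73.5 and 56.9 CPM, so that shLUC replicate 1 alone reached into the range of shPKLR. Rdh16 had log2 fold changes of -0.75 (SE 0.22) and 0.29 (SE 0.22), neither of them called. Its difference between both effects was 1.01 (SE 0.32), not called by edgeR with all livers. EdgeR called it without shLUC replicate 1 (1.16) or without GFP replicate 3 (1.17), and DESeq2 called it with all livers (1.03). Dhrs3, which reduces retinal to retinol, varied least: its means ran from 165 to 195 CPM and its log2 fold changes were -0.07 (SE 0.14) and -0.02 (SE 0.11). Within groups the pooled SD of log2 levels was 0.20 for Dhrs3, 0.22 for Akr1c6 and 0.24 for Hsd11b1. It was between 0.30 and 0.40 for the other 7 genes.

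**Figure D3:**
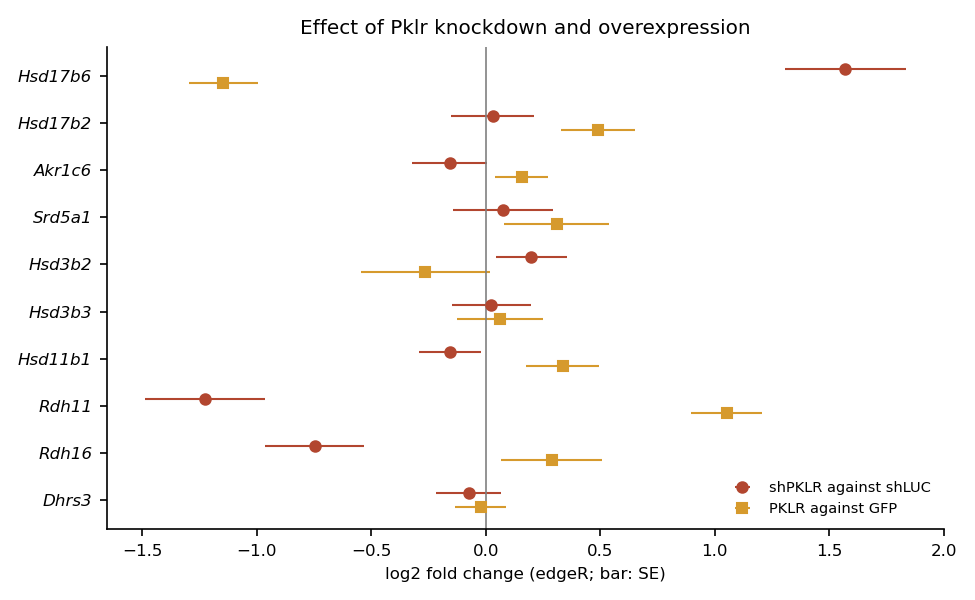
Log2 fold change of each gene with Pklr knockdown (circles, shPKLR against shLUC) and overexpression (squares, PKLR against GFP), from edgeR fits of 10 livers each, with bars of 1 SE. Hsd17b6 (1.57 and -1.15) and Rdh11 (-1.23 and 1.05) lie far from 0 in opposite directions, Rdh16 lies at -0.75 with knockdown, and the other 7 genes lie between -0.26 and 0.49.

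The genes were also compared between livers of the same group, after subtracting each group's mean log2 level, which removes the effects that chose them. These correlations are descriptions over 20 livers, were chosen after the data were seen, and share each library's depth and scaling between genes. All 10 pairs of Hsd17b2, Akr1c6, Srd5a1, Hsd3b2 and Hsd3b3 had a positive Pearson r, from 0.16 to 0.79, and 9 of the 10 were positive in both experiments taken alone. The exception, Hsd17b2 with Akr1c6, had r = -0.09 in knockdown livers and 0.56 in overexpression livers, and its r of 0.16 became 0.64 without shPKLR replicate 4. The retinal reductase gene Dhrs3 also had a positive r with each of the 5, from 0.22 with Akr1c6 to 0.61 with Srd5a1, though with Hsd17b2 it was 0.72 in knockdown and -0.15 in overexpression livers. Hsd3b2 and Hsd3b3 had the highest, r = 0.79 (Spearman rho 0.79), and were at 0.75 and 0.84 within the 2 experiments. Part of their sequence is shared, as given below. Srd5a1 reached r = 0.73 with Hsd17b2 and with Hsd3b3, and Akr1c6 reached 0.72 with Hsd3b3. Without the 2 livers farthest from the median of Hsd17b2, Srd5a1 and Akr1c6, in that order, these 3 values were 0.71, 0.68 and 0.93.

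These 5 steroid genes followed a list of 20 liver genes that are more active in males, among them urinary protein and Cyp genes. The r with the mean log2 level of that list was 0.91 for Srd5a1, with 0.86 in knockdown livers and 0.95 in overexpression livers. It was 0.72 for both Hsd17b2 and Hsd3b3, 0.57 for Akr1c6 and 0.56 for Hsd3b2. With the female-biased list Srd5a1 had r = -0.74, made up of -0.45 in knockdown livers and -0.96 in overexpression livers. Rdh16 went the other way, with -0.49 for the male-biased and 0.61 for the female-biased list. All mice were male. Without shPKLR replicate 4, Srd5a1 kept an r of 0.91 with the male-biased list and Akr1c6 had one of 0.77.

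Rdh11 followed another list. Its r with 24 genes of cholesterol synthesis was 0.74, and 0.77 and 0.76 within the knockdown and overexpression livers. Among 9618 genes whose mean reached 5 CPM, those most like Rdh11 within groups were Gm5873 (r = 0.91), the acetyl-CoA synthetase gene Acss2 (0.89), Commd10 (0.86), Hmgcs1, which makes HMG-CoA for cholesterol (0.83), and the water channel gene Aqp8 (0.82). The lowest were 4930523C07Rik and the xenobiotic receptor gene Nr1i2 (both -0.73) and Mrpl28 (-0.72). Hsd17b6 had its highest values with Amigo1 (0.77), the glutathione transferase gene Gsto1 (0.73), Sap30l (0.68), Rbfa (0.68) and Uqcrfs1 (0.67), and among its lowest were Mff (-0.69) and Gtpbp8 (-0.68). Hsd17b6 and Rdh11 had r = -0.61 (rho -0.54) with each other. That relation did not hold in both experiments, with -0.80 in knockdown livers and -0.03 in overexpression livers. It was -0.48 without the 2 livers farthest from the median of Hsd17b6. Hsd17b6 with the cholesterol list was likewise at -0.88 in knockdown and -0.14 in overexpression livers.

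**Figure D4:**
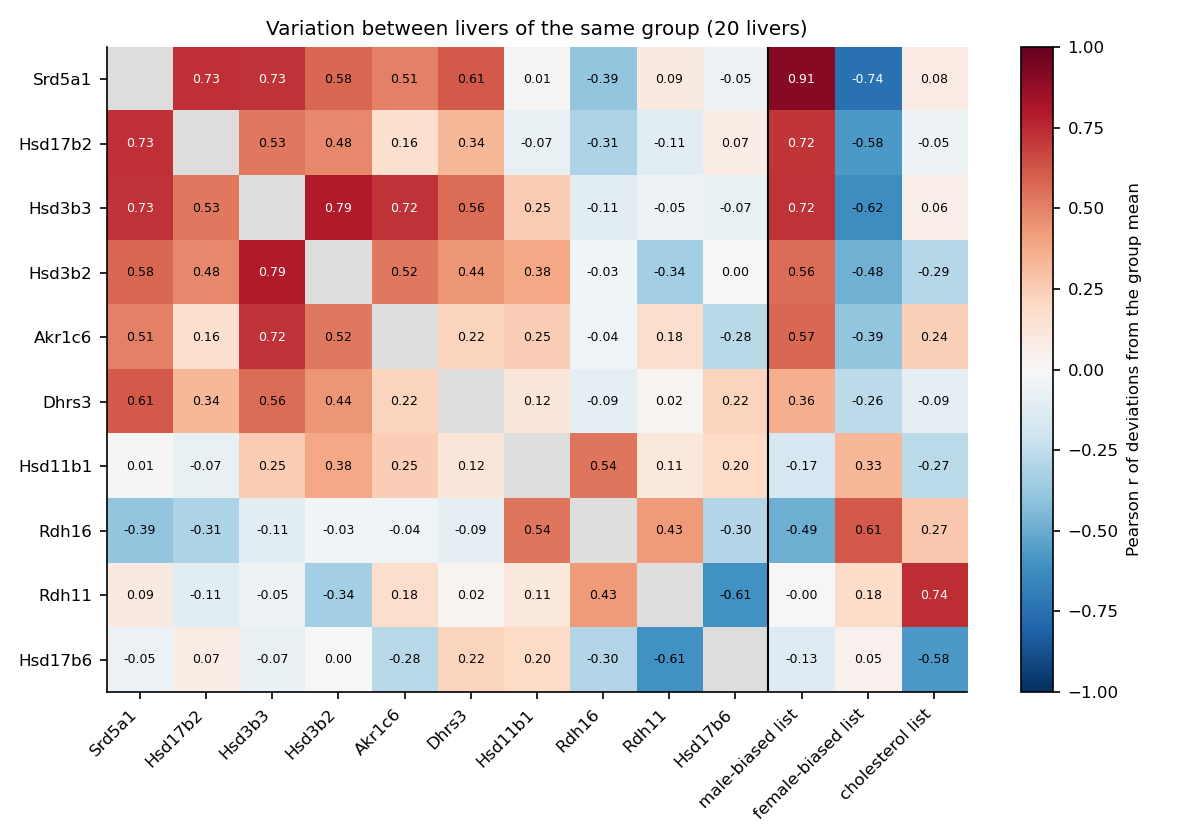
Pearson r between the 10 genes, and of each with the mean of 3 gene lists (right of the line), from log2 levels of 20 livers after subtraction of group means; red is positive, blue negative and grey the diagonal. Srd5a1, Hsd17b2, Hsd3b3, Hsd3b2 and Akr1c6 form a block of positive values that extends to the male-biased list (0.56 to 0.91), and Rdh11 has 0.74 with the cholesterol list.

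Hsd17b6 and Rdh16 lie near each other on chromosome 10, with start sites 206459 bases apart. Between them lie Rdh19, Rdh16f2, Rdh7 and Sdr9c7, relatives in the same enzyme family. The pseudogene Rdh18-ps lies within the span of Rdh16 on the same strand and shares 381 exon bases with it. Rdh7, the most abundant by CPM, was at 960 CPM with shLUC, 929 with shPKLR, 879 with GFP and 898 with PKLR (n = 5 each). It had log2 fold changes of -0.04 (SE 0.12) and 0.03 (SE 0.12), with edgeR adjusted p = 0.87 and 0.91. Rdh16f2 was at -0.06 (SE 0.19) and -0.32 (SE 0.24). Sdr9c7 differed between PKLR and GFP livers (0.91, SE 0.16, edgeR adjusted p = 0.018) and was at -0.01 (SE 0.21) with knockdown. Its means were 66.4 CPM with shLUC, 65.7 with shPKLR, 37.0 with GFP and 69.4 with PKLR, so that the GFP mean alone was low. Rdh19 was low, with means of 2.19, 6.28, 6.24 and 2.48 CPM in shLUC, shPKLR, GFP and PKLR livers. Its shPKLR mean rested on 1 liver at 20.1 CPM, with a median of 2.27 CPM. Neither log2 fold change of Rdh19 passed, at 1.53 (SE 0.70) with knockdown and -1.31 (SE 0.32) with overexpression, where the edgeR adjusted p-values were 0.33 and 0.062.

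Close relatives can share reads. Of the 50-base windows of Hsd17b6 transcripts 12.1% occur in transcripts of other genes, among them Rdh1, Rdh16f1, Rdh19 and Rdh18-ps. In single livers Rdh19 ranged from 0.340% to 14.7% of the Hsd17b6 level, and Rdh18-ps from 2.24% to 54.6%. Means of Rdh18-ps were 17.3 CPM with shLUC, 13.2 with shPKLR, 13.3 with GFP and 13.3 with PKLR. The share of windows found in other genes was 14.5% for Rdh16, 15.1% for Srd5a1 (all with the overlapping gene Gm17108) and 26.9% for Hsd3b2. It was 8.73% for Hsd3b3, 1.39% for Akr1c6, and 0 for Rdh11, Hsd11b1, Hsd17b2 and Dhrs3. Zfp697 overlaps exons of Hsd3b2 and Hsd3b3 on the opposite strand. The counting rule for shared reads is unknown, so values of the sharing genes are less certain.

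**Figure D5:**
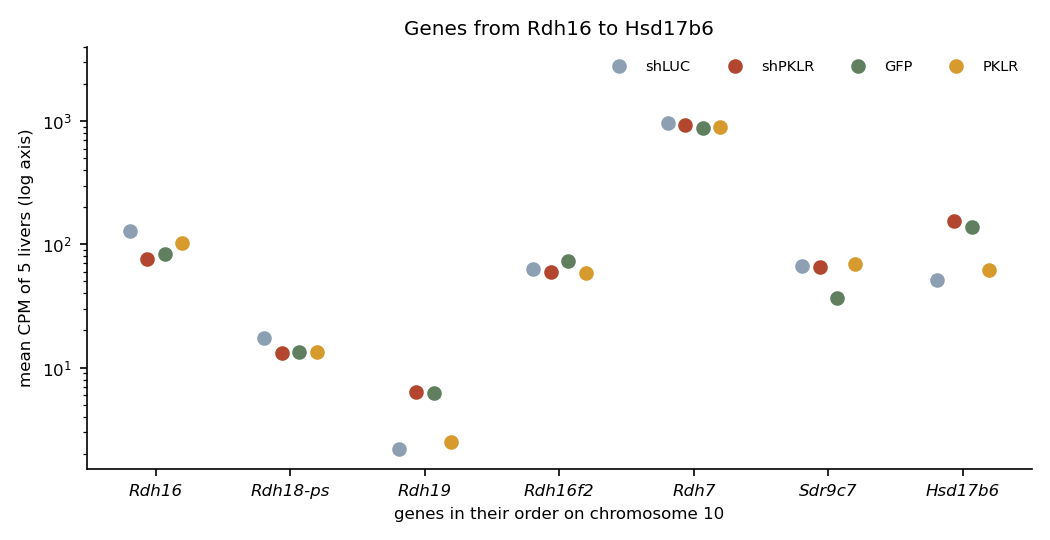
Mean CPM (log axis) of the counted genes from Rdh16 to Hsd17b6 in their order on chromosome 10, with 1 point per group of 5 livers. Rdh7 is near 900 CPM in all groups, and Hsd17b6 is higher with shPKLR and GFP than with shLUC and PKLR. The shPKLR mean of Rdh19 rests on 1 liver.

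Genes around the 10 enzymes were taken from lists, and their test results are given here. The lists too were chosen with earlier results of these data known, so their calls and counts are descriptions. Beside them, edgeR called 1.19% of all genes higher and 0.846% lower with overexpression. In the difference between both effects it called 2.75% higher and 2.75% lower. In bulk liver, fewer cells of a type and less RNA per cell cannot be told apart. With knockdown edgeR called 0 genes of any of these lists. Unadjusted p-values under 0.05 were found for 4 of 20 other steroid dehydrogenases and reductases, 2 of 22 other retinoid enzymes, 1 of 12 retinoid carriers, receptors and targets, 1 of 4 steroid receptors, 1 of 14 glucocorticoid receptor targets, 3 of 17 genes of steroid conjugation and hydroxylation, and 23 of 24 of cholesterol synthesis. They were found for 4 of 20 male-biased, 3 of 14 female-biased, 1 of 16 pericentral and 2 of 14 periportal genes. Over all genes they were found for 2339 of 15611, so small counts in a list are no sign of an effect on it. DESeq2 called 1 of the steroid enzymes, 0 of the next 5 lists and 16 of the cholesterol genes, besides 2 male-biased genes. The edgeR fit of all 20 libraries called 10 cholesterol genes and 1 of the steroid enzymes with knockdown. Limma-voom called 0 in the first 6 and 1 in cholesterol synthesis. The median log2 fold change was -0.09 for the steroid enzymes, -0.05 for the retinoid enzymes and -1.01 for cholesterol synthesis, beside 0.02 over all genes.

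Of the other steroid enzymes 2 of 20 rose with overexpression and 0 fell (median 0.03, beside 0.01 over all genes). Hsd17b7, an enzyme of cholesterol synthesis that also makes estradiol, went from 28.3 ± 6.45 to 47.0 ± 7.64 CPM (SD, n = 5 each). The log2 fold change of Hsd17b7 was 0.73 (SE 0.15, edgeR adjusted p = 0.037). Akr1c20 went from 54.4 ± 6.65 to 75.9 ± 10.3 CPM, a log2 fold change of 0.48 (SE 0.11, edgeR adjusted p = 0.047). With 1 library left out, each stayed called in 2 of 10 fits: Hsd17b7 without GFP replicate 2 or PKLR replicate 5, and Akr1c20 without GFP replicate 5 or PKLR replicate 4. Of 7 other settings Hsd17b7 lost its call in 2 (the replicate block and the fit of all 20 libraries) and Akr1c20 in 4 (RLE size factors, a filter of 1 CPM, limma-voom and the fit of all 20 libraries). The difference between both effects was 1.80 for Hsd17b7 (SE 0.28, edgeR adjusted p = 0.0012), called in 20 of 20 such fits. Akr1d1, which reduces the double bond of steroids on the way to bile acids, was at 1.24 there (SE 0.34, edgeR adjusted p = 0.035), called in 12 of 20 fits, and Akr1c20 at 0.79 (SE 0.22, edgeR adjusted p = 0.037), called in 10 of 20. Akr1d1 was at -0.87 (SE 0.26, edgeR adjusted p = 0.23) with knockdown.

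Of 22 other retinoid enzymes 1 fell with overexpression and 0 rose (median 0.04). Dhrs9, a retinol and steroid dehydrogenase, had a log2 fold change of -1.17 (SE 0.24, edgeR adjusted p = 0.030), with 6.23 ± 2.12 CPM in GFP and 2.77 ± 0.542 in PKLR livers (SD, n = 5 each). It was called in 4 of 10 fits with 1 library left out. Limma-voom did not call Dhrs9. The abundant alcohol and retinol dehydrogenase gene Adh1 was at 1369, 1330, 1199.9 and 1236 CPM in shLUC, shPKLR, GFP and PKLR livers. As differences between both effects, Dhrs7 was at 0.70 (SE 0.20), Dhrs9 at -1.63 (SE 0.44) and Rdh19 at -2.87 (SE 0.84), with edgeR adjusted p-values of 0.042, 0.035 and 0.049. These were called in 8, 7 and 4 of 20 fits with 1 library left out.

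Markers of stellate cells, the liver's store of retinoids, and of fibroblasts summed to 341 to 619 CPM with GFP and 267 to 412 with PKLR. Of 12 such markers 11 had negative log2 fold changes and 1, Colec11, fell (-0.73, edgeR adjusted p = 0.036). In the difference between both effects 3 were lower, Col1a2 (-1.45), Col3a1 (-1.66) and Des (-1.01), with edgeR adjusted p-values of 0.045, 0.029 and 0.035. With shLUC they summed to 319 to 459 CPM and with shPKLR to 242 to 403, and all 12 were counted in each group. Their part in the fall of Dhrs9 was not tested. Lrat, which esterifies retinol in stellate cells, was at 13.3 ± 3.54 with GFP and 12.8 ± 6.73 CPM with PKLR (SD, n = 5 each). Cyp26a1, which degrades retinoic acid, had a log2 fold change of -1.52 with knockdown (SE 0.49, edgeR adjusted p = 0.25).

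Of 4 steroid receptor genes past the filter, Esr1, the estrogen receptor alpha gene, fell with overexpression (-0.52, SE 0.12, edgeR adjusted p = 0.048), with 16.3 ± 0.919 CPM in GFP and 11.3 ± 2.20 in PKLR livers (SD, n = 5 each). It stayed called in 2 of 10 fits, without GFP replicate 5 or PKLR replicate 4, and was not called in the fit of all 20 libraries.

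Of 14 glucocorticoid receptor targets 1 fell with overexpression and 0 rose, with a median of -0.45. Igfbp1, a binding protein of insulin-like growth factors that insulin also lowers, was at 64.0 ± 14.5 CPM in GFP, 16.1 ± 3.64 in PKLR, 16.4 ± 6.13 in shLUC and 17.8 ± 11.6 in shPKLR livers (SD, n = 5 each). Its log2 fold change with overexpression was -1.996 (SE 0.19, edgeR adjusted p = 0.0011). The GFP livers thus stood apart from the other 3 groups. Igfbp1 and the gluconeogenic gene Pck1 had differences between both effects of -2.12 (SE 0.48) and -1.61 (SE 0.37), with edgeR adjusted p-values of 0.015 and 0.018.

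Of 17 genes of steroid conjugation and hydroxylation 2 rose and 1 fell with overexpression (median 0.25). Cyp2d9, a testosterone hydroxylase, rose by 1.17 on the log2 scale (SE 0.26) and Ugt1a1, a glucuronosyltransferase, by 0.77 (SE 0.17), with edgeR adjusted p-values of 0.047 and 0.043. Cyp3a11, which hydroxylates steroids and drugs, was at -1.18 (SE 0.23, edgeR adjusted p = 0.030). They were called in 2, 3 and 4 of 10 fits with 1 library left out. Cyp2d9 was not called with RLE size factors or with no filter on low counts, nor Ugt1a1 with no filter or in the fit of all 20 libraries. Cyp genes with near-identical copies are uncertain. In this list too the controls differed: Cyp2d9 was at 1216 ± 257 CPM in shLUC and 507 ± 198 in GFP livers (SD, n = 5 each).

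Cholesterol synthesis, the list that Rdh11 followed within groups, had 7 of 24 genes that rose with overexpression and 0 that fell (median 0.75). With 1 library left out this count ran from 2 (without PKLR replicate 3) to 14 (without GFP replicate 2). Mvd stayed called in 10 of 10 such fits, Fdps in 3, and Hmgcs1 and Lss in 1 each. Hsd17b7 is in both this list and that of steroid enzymes. As a difference between both effects 21 rose and 0 fell, with a median of 1.78 beside -0.06 over all genes. Hmgcs1 was at 362 ± 129 CPM with shLUC, 137 ± 39.5 with shPKLR, 160 ± 43.4 with GFP and 304 ± 76.3 with PKLR (SD, n = 5 each), higher with shLUC and PKLR than with shPKLR and GFP, as was Rdh11. Its difference was 2.30 (SE 0.36, edgeR adjusted p = 0.0012), beside 2.26 (SE 0.33) for Rdh11. Mvd, a mevalonate enzyme, rose with overexpression (1.77, SE 0.25, edgeR adjusted p = 0.011). Of the male-biased list 2 of 20 genes rose and 0 fell with overexpression (median 0.70), a count of 1 to 3 with 1 library left out. Of the female-biased list 1 of 14, Cyp3a44, fell and 0 rose (median -0.56), a call kept in 1 of 10 such fits, without GFP replicate 5. Of the genes of pericentral hepatocytes, the list with which Akr1c6 had r = 0.70 within groups, 2 of 16, Glul and Nkd1, rose and 0 fell (median 0.33), with Glul called in 10 and Nkd1 in 3 of 10 such fits. Of the periportal genes 1 of 14, Aldh1b1, fell and 0 rose (median -0.48).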

How the data were processed

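Liver RNA was sequenced from 20 mice with a stranded total RNA kit, per the labels' protocols. The authors deposited 2 tables of raw read counts per gene, 1 per experiment, and the submitters' processing notes name HISAT2, DESeq2, GRCm38 and mm10. Which counting program, annotation release and strand setting were used is not given in the sources used here. Columns were matched to libraries by name. The labels do not say more of the replicates than their numbers, so p-values measure the spread between these livers. Symbols, positions and exon lengths came from GENCODE vM21 and promoters from RefSeq (GRCm38.p6).

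Each experiment was fitted in edgeR 4.0.16 (robust quasi-likelihood, filterByExpr, TMM; R 4.3.3), and the difference between both effects in 1 model of all 20 livers. The SE is the log2 fold change over the square root of F. Log2 CPM used a prior count of 2. The 10 genes and all lists were chosen with earlier results of these data known. Named were all 10 genes, up to 3 genes per list and comparison with the smallest p, and for Hsd17b6 and Rdh11 the 5 most and 3 least alike genes. Correlations among the 10 genes and with lists, the neighbours, the motifs and the arrangement of livers over both experiments were added after the data were seen. Alternatives to these fits were RLE size factors, 2 other filters on low counts, DESeq2 1.42.0, limma-voom (limma 3.58.1), the replicate number as a block, 1 fit of all 20 libraries, shPKLR replicate 4 thinned to the depth of the others, and each library left out. Some genes that this rule names are not reported here. The fits were tested on simulated counts.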

Additional observations from a re-analysis of the deposited data

Results flagged for a closer look

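In 3 of the 40 groups of 5 livers (10 genes, 4 groups) 1 liver stood far from the rest, by a gap to the next liver of more than 0.71 of the group's range; chance does this in about 1 of 20 groups. Srd5a1 was at 143 CPM in shLUC replicate 1, with the next liver at 92.3 CPM. Hsd11b1 was at 617 CPM in shPKLR replicate 1, with the next at 468 CPM, and at 563 CPM in PKLR replicate 3, with the next at 451 CPM. Without these livers the log2 fold change of Srd5a1 with knockdown was 0.29, and those of Hsd11b1 were -0.28 with knockdown and 0.24 with overexpression; none was called.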

How the results depend on the processing

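With knockdown edgeR called 1 gene; this was 7 with RLE size factors, 17 with no filter on low counts, 260 with DESeq2, 8 with limma-voom, 3 with the replicate block and 114 in 1 fit of all 20 libraries. With 1 library left out it ran from 1 to 12, the counts being 12 (shPKLR replicate 2 left out), 6 (shPKLR replicate 1 or 3) and 3 (shLUC replicate 1). Of the 10 genes 0 were called, but 1 with no filter (Hsd17b6), 2 with DESeq2 and 2 in the fit of all 20 (Hsd17b6 and Rdh11), and 0 to 1 with a library left out (Hsd17b6 without shPKLR replicate 2). With overexpression 322 genes were called, 1107 with DESeq2, 544 with the replicate block and 128 to 469 with a library left out (128 without GFP replicate 4), while 2 of the 10 were called in each of these fits. Of the 322 calls 58.4% were higher, against 35.5% in the fit of all 20 (120 higher, 218 lower), 48.1% with DESeq2 and 48.5% with the block. In the difference between both effects 902 genes were called, 1614 with DESeq2 and 485 to 1384 with a library left out (485 without shLUC replicate 2). Of the 10 genes 2 to 3 were called there, with Rdh16 added by DESeq2, without shLUC replicate 1 or without GFP replicate 3. Of 620 recomputed fold changes of the 10 genes 28 changed sign, in genes near 0 (Hsd17b2, Srd5a1, Hsd3b3 and Dhrs3): with knockdown Hsd17b2 was at -0.0081 with limma-voom and Hsd3b3 at -0.0019 with limma-voom and -0.0014 with the replicate block, and the Hsd3b3 difference was at -0.011 with a filter of 1 CPM. With a library left out the range with knockdown was -0.12 to 0.14 for Hsd17b2, -0.0077 to 0.29 for Srd5a1, -0.10 to 0.14 for Hsd3b3 and -0.13 to 0.026 for Dhrs3; with overexpression it was -0.064 to 0.21 for Hsd3b3 and -0.11 to 0.055 for Dhrs3, and in the difference -0.10 to 0.16 for Hsd3b3 and -0.057 to 0.10 for Dhrs3. Hsd17b6 with knockdown ranged from 1.42 to 1.73 and Rdh11 from -1.40 to -1.10. Counts of list genes called moved by over 1.5 times in 127 of 440 fits with a library left out and in 48 of 242 others. The cause of these differences was not tested. Livers with the same number had r from -0.27 to 0.44 over the 10 pairs. With so few livers per group these r values can neither show nor exclude a pairing. The labels give only the numbers, so whether the block pairs animals is unknown. Genes under a few CPM, such as Rdh19, are limited by depth.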
